A study of Arabidopsis thaliana with 8 samples.

Results

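The genes described here are 9 of the cytokinin signalling path from the membrane to the nucleus in Arabidopsis. They are the 3 receptors AHK2, AHK3 and AHK4 and the 6 members of the histidine phosphotransfer family, AHP1 to AHP6, of which AHP6 is an inhibitor. They were taken by gene identifier from a table of 33199 genes, in which all 9 were present, and all 9 passed the filter on low values described below. The samples were shoots and roots of the Col-0 accession, with 4 libraries of each organ and no treatment other than the organ taken, and messenger RNA was sequenced after poly-A selection. The sources used here give neither plant age, growth medium nor harvest, nor do they say whether the 4 samples of an organ came from separate cultures, so p-values reflect only how much these samples vary, perhaps for technical reasons alone. Root was compared with shoot to find differences in transcript level between the organs.

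Cytokinins bind the receptors, membrane histidine kinases that lie largely in the endoplasmic reticulum, and the bound receptor phosphorylates itself on a histidine. The phosphate passes to a phosphotransfer protein, which moves between cytosol and nucleus, and from there to the response regulators: type-B regulators are transcription factors that switch on the response, and type-A regulators are fast targets that dampen it. AHK4, also called CRE1 or WOL, is known for the divisions of the vascular initials of the root, and AHK3 for the lifespan of leaves. AHP1, AHP2, AHP3 and AHP5 are overlapping positive carriers, and AHP6 is an inhibitor known from the protoxylem of the root.

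The phosphotransfer genes are shown by the coding bases around the codon that receives the phosphate, since AHP6 stands apart from the others at this codon. Each stretch holds 4 codons before that codon, the codon itself in capitals and 5 codons after it, read 5′ to 3′ on the coding strand of RefSeq's TAIR10.1 genome.
AHP1: gatccccatgttCATcaactcaaaggtagc
AHP2: ggtgctagtgtgCATcaattgaagggtagt
AHP3: ggttctagtgttCATcaactcaaaggtagt
AHP4: gatagttacatgCATcagtttaagggaagc
AHP5: gattcaggtgttCATcaactcaagggtagt
AHP6: ggattacacctgAATcagctggtgggaagc
The stretches lie in coding exons, with AHP1 at chr3:7578969-7578998 (minus strand), AHP2 at chr3:11264849-11264878 (minus strand), AHP3 at chr5:15749742-15749771 (plus strand), AHP4 at chr3:5554746-5554775 (plus strand), AHP5 at chr1:848676-848705 (plus strand), AHP6 at chr1:30134164-30134193 (plus strand). Of the 6 genes, 5 have CAT, which encodes histidine, at this place, and AHP6 has AAT, which encodes asparagine, at codon 83 of its longest RefSeq coding model. A histidine is needed there to accept the phosphate, and AHP6 is called a pseudo-phosphotransfer protein for that reason. Over the aligned coding sequences AHP2 and AHP3 were the most alike of the 6, with 85.5% of bases identical and a longest shared run of 45 bases, and AHP5 shared 75.8% and 76.6% with them. AHP6 shared 53.3% to 58.9% with the other 5 genes, and the 3 receptors shared 61.9% to 64.6% with each other. The treatment of reads that fit more than 1 gene is not given in the sources used here, so a small exchange of reads between AHP2 and AHP3 cannot be told apart from their own.

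Levels are given as FPKM, fragments per kilobase of gene relative to a scaled library size, which allows genes of different length to be compared within a library. Each log2 fold change is root minus shoot, in units of log2(FPKM + 0.5), so changes of weakly expressed genes come out too small, and was tested with limma over the 20314 genes that reached 0.5 FPKM in at least 4 of the 8 libraries. A change was called at an adjusted p under 0.05, with Benjamini-Hochberg adjustment over all tested genes. Of all tested genes 69.6% changed. By this rule 4 of the 9 genes (AHK4, AHP1, AHP3 and AHP6) were higher in root, where 37.6% of all tested genes were, 2 (AHK3 and AHP4) were higher in shoot, where 32.0% of all tested genes were, and 3 (AHK2, AHP2 and AHP5) did not pass. The FPKM values of the organs did not overlap for 6 of the 9, against 64.8% of all tested genes, and the median fold change was 0.02 (log2) for the 9 and 0.07 for all tested genes. The number of genes that changed was thus near the background of a comparison in which most genes changed. AHP6 passed the filter through its root libraries alone, so its call follows in part from the filter and these counts support nothing further.

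The libraries held 9857791 to 12460762 reads in genes. The deposited scaling raised shoot values and lowered root values relative to the read totals, since the library sizes it implies were 0.770 to 0.865 of the totals in shoot and 1.18 to 1.25 of them in root. Scaling by the totals alone shifted the median over all genes tested from 0.07 to 0.58 on the log2 scale, and 7 of the 9 genes were then called higher in root and 1 in shoot, where 59.8% and 19.7% of all tested genes were. Of 10 green tissue markers all 10 were higher in shoot, and of 10 root tissue markers all 10 were higher in root, as the organ labels state. The summed green tissue markers stood at 62092.3 to 81584.4 FPKM in shoot and at 479.1, 333.7, 114.2 and 138.8 FPKM in root libraries 1 to 4, and the summed root markers at 2.57 to 8.24 FPKM in shoot and 602.8 to 759.6 in root. Of these root markers, PLT1, PLT2, SMB and COBL9 had no read in any shoot library. In bulk tissue, fewer cells of a type and less RNA per cell cannot be told apart, and this holds for every level below.

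**Figure D1:**
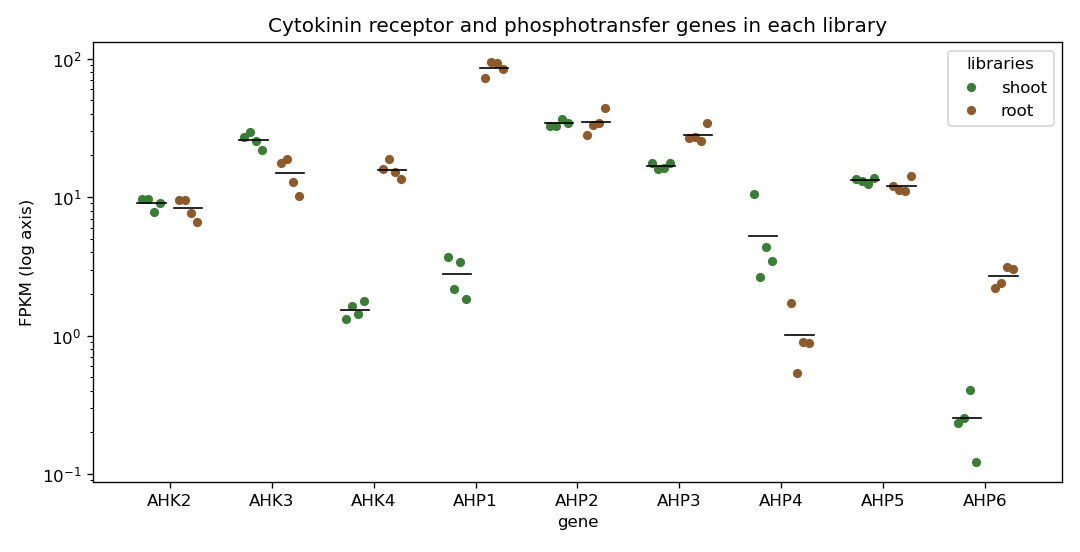
FPKM of the 9 genes in each library on a log axis, with 4 shoot points (green) and 4 root points (brown) per gene in order of library number and a black line at each mean. AHK4, AHP1 and AHP6 lie far higher in root and AHP3 less so, AHK3 and AHP4 lie higher in shoot, and the points of AHK2, AHP2 and AHP5 overlap.

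Among the receptors, AHK4 was the gene that differed most, about 10-fold higher in root, while AHK3 was lower in root and AHK2 did not pass. AHK4 (AT2G01830, chromosome 2, 362983 to 369707) had 1.31, 1.64, 1.44 and 1.77 FPKM in shoot libraries 1 to 4 and 15.9, 18.7, 15.1 and 13.5 FPKM in root libraries 1 to 4. Every root library was above every shoot library by a wide margin, and the spread within each organ was small, with a coefficient of variation of 13.3% in shoot and 13.8% in root. The mean rose from 1.54 ± 0.204 FPKM in shoot to 15.8 ± 2.17 in root (SD, n = 4 each), a ratio of 10.2, and limma gave a log2 fold change of 2.99 (SE 0.14, adjusted p = 1.06e-08). The values rest on 245 reads in the 4 shoot libraries and 3876 in the 4 root libraries.

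AHK3 (AT1G27320, chromosome 1, 9486889 to 9492632) was the main receptor transcript of the shoot. It had 27.4, 29.4, 25.5 and 21.8 FPKM in the shoot libraries and 17.6, 18.7, 12.9 and 10.2 FPKM in the root libraries. The organs did not overlap, but the lowest shoot library and the highest root library were close, and root libraries 1 and 2 were higher than root libraries 3 and 4. The means were 26.0 ± 3.25 FPKM in shoot and 14.9 ± 3.98 in root (SD, n = 4 each), 1.75-fold higher in shoot, with a log2 fold change of -0.82 (SE 0.18, adjusted p = 0.0021 by limma). Root libraries 1 and 2 were also those with more green tissue transcripts, as given above, and the part of this in the AHK3 level was not tested. Without them the log2 fold change of AHK3 was -1.13 (adjusted p = 3.13e-04 by limma). They were also the root libraries with the highest AHK3 values. Leaving them out therefore had to enlarge the fall, and the value says nothing of its cause. With all libraries and library totals alone as the scaling, the log2 fold change of AHK3 was -0.28, against 0.58 for the median gene. AHK3 was then no longer called (adjusted p = 0.206 by limma).

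AHK2 (AT5G35750, chromosome 5, 13911283 to 13916805), the receptor that acts largely together with AHK3, had 9.76, 9.67, 7.84 and 9.02 FPKM in shoot and 9.58, 9.50, 7.74 and 6.64 FPKM in root. The ranges overlapped, with 2 of the 4 root libraries inside the shoot range and 2 below it. Its log2 fold change was -0.12 (SE 0.14, adjusted p = 0.456 by limma). With library totals alone it turned to 0.41 (adjusted p = 0.0265), less than the 0.58 of the median gene under that scaling.

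The make-up of the receptor family within a library does not depend on how libraries are scaled, and it differed between the organs without overlap for each of the 3 genes, by little for AHK2. AHK4 held 3.4%, 4.03%, 4.15% and 5.43% of the summed receptor FPKM in the shoot libraries and 36.8%, 39.8%, 42.2% and 44.4% in the root libraries. AHK3 held 66.9% to 73.3% in shoot and 33.7% to 40.9% in root, while AHK2 held 22.6% to 27.7% and 20.2% to 22.3%. AHK3 transcripts thus outnumbered AHK4 transcripts 12.3- to 21.0-fold per unit length in the shoot libraries, and in root the ratio of AHK3 to AHK4 was 1.11, 1.00, 0.857 and 0.759 in libraries 1 to 4. The receptor sum was 36.6 ± 3.65 FPKM in shoot and 39.0 ± 7.39 in root (SD, n = 4 each) with the deposited scaling, a ratio of 1.07, against a ratio of 1.57 with library totals. No test was run on these shares and sums.

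**Figure D2:**
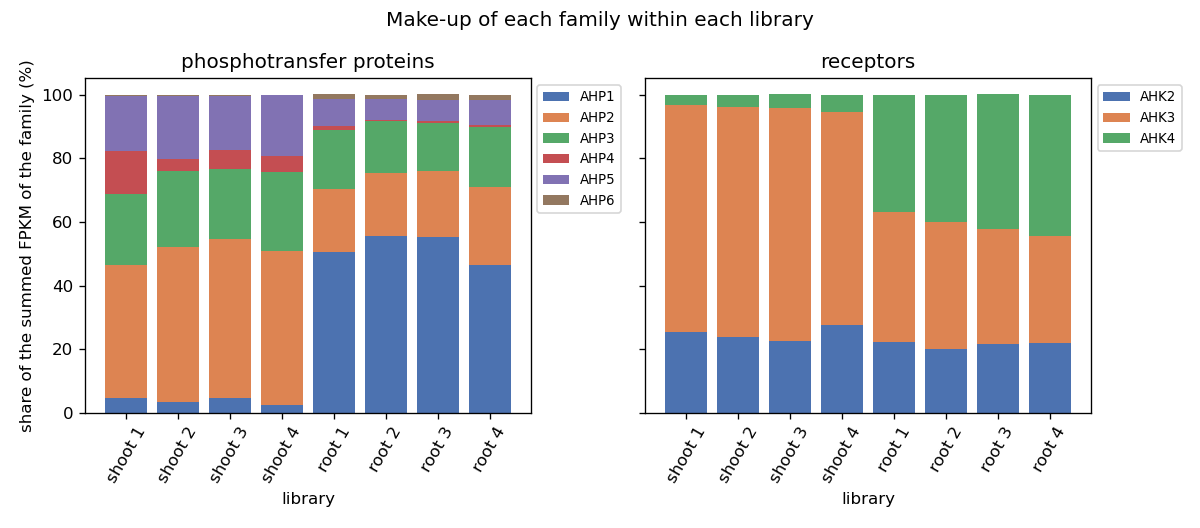
Share of the summed FPKM of each family held by each gene, in percent, for each of the 8 libraries, with phosphotransfer genes on the left and receptors on the right. AHP1 goes from 2.59% to 4.71% in shoot to 46.6% to 55.7% in root, and AHK4 from 3.4% to 5.43% to 36.8% to 44.4%.

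Among the phosphotransfer genes, AHP1 was about 31-fold higher in root, and it was the most abundant of all 9 genes there. AHP1 (AT3G21510, chromosome 3, 7577712 to 7579789) had 3.68, 2.17, 3.41 and 1.85 FPKM in shoot libraries 1 to 4 and 72.4, 94.0, 93.0 and 83.8 FPKM in root libraries 1 to 4. The lowest root library was far above the highest shoot library. The means were 2.78 ± 0.903 FPKM in shoot and 85.8 ± 10.0 in root (SD, n = 4 each), a ratio of 30.9, with a log2 fold change of 4.75 (SE 0.19, adjusted p = 3.25e-09 by limma). The size of this change exceeded that of 96.3% of all tested genes, and that of AHK4 exceeded 88.2%.

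AHP2 (AT3G29350, chromosome 3, 11264126 to 11265562) was the most abundant of the 9 genes in shoot and came after AHP1 in root. It had 32.6, 32.5, 36.8 and 34.4 FPKM in shoot and 28.3, 33.4, 34.3 and 43.9 FPKM in root. The root libraries spread on both sides of the shoot range, with root library 4 the highest of the 8. The log2 fold change was 0.02 (SE 0.12, adjusted p = 0.886 by limma), and it was 0.57 (adjusted p = 0.00133) with library totals alone, close to the median gene under that scaling.

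AHP3 (AT5G39340, chromosome 5, 15748731 to 15750891), the closest relative of AHP2 in sequence, was higher in root. It had 17.5, 15.9, 16.3 and 17.6 FPKM in shoot and 26.6, 27.2, 25.4 and 34.1 FPKM in root, with no overlap. The means were 16.8 ± 0.865 and 28.3 ± 3.91 FPKM (SD, n = 4 each), a ratio of 1.68, with a log2 fold change of 0.72 (SE 0.10, adjusted p = 9.78e-05 by limma). Within libraries the ratio of AHP3 to AHP2 was 0.443 to 0.538 in shoot and 0.740 to 0.941 in root, which no scaling of libraries can alter. AHP3 shares 17 bases at its end with a neighbouring gene on the same strand, AT5G39350, which averaged 1.01 FPKM in shoot and 2.17 in root.

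AHP5 (AT1G03430, chromosome 1, 847793 to 849621) had 13.6, 13.1, 12.5 and 13.8 FPKM in shoot and 12.1, 11.2, 11.0 and 14.2 FPKM in root. The shoot range lay within the root range. Its log2 fold change was -0.13 (SE 0.10, adjusted p = 0.287 by limma), and 0.41 with library totals alone (adjusted p = 0.00539), less than the median gene. It had the smallest coefficient of variation among shoot libraries of the 9 genes, at 4.3%.

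AHP4 (AT3G16360, chromosome 3, 5554197 to 5555789), whose part in cytokinin responses is reported to be small, was higher in shoot and varied most. It had 10.6, 2.66, 4.37 and 3.48 FPKM in shoot and 1.71, 0.539, 0.901 and 0.879 FPKM in root. The organs did not overlap, but library 1 was the highest of its organ in both, and the coefficient of variation was 68.2% in shoot and 49.2% in root. The means were 5.26 ± 3.59 and 1.01 ± 0.495 FPKM (SD, n = 4 each), 5.23-fold higher in shoot, with a log2 fold change of -1.81 (SE 0.37, adjusted p = 0.0012 by limma). Without shoot library 1 the ratio of means was 3.48 and the log2 fold change -1.44 (adjusted p = 8.88e-04). The values rest on 174 shoot reads and 53 root reads, and a non-coding gene on the opposite strand that shares 212 bases with AHP4 averaged 0.0 FPKM in both organs.

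AHP6 (AT1G80100, chromosome 1, 30133718 to 30134937), the inhibitor without the histidine, was the least abundant of the 9 genes in shoot and rose in root. It had 0.233, 0.253, 0.405 and 0.122 FPKM in shoot, from 2, 2, 4 and 1 reads, and 2.20, 2.39, 3.14 and 3.01 FPKM in root, from 34, 28, 44 and 36 reads. Every root library was above every shoot library, at a level that in shoot was only a few reads above 0. The log2 fold change was 2.08 (SE 0.18, adjusted p = 1.48e-06 by limma), and the ratio of scaled reads was 10.3, with a 95% exact counting interval of 5.25 to 22.9 that covers counting error only. Even in root AHP6 made up 1.42% to 1.87% of the summed phosphotransfer FPKM, and AHP1 was 27.9 to 39.4 times as abundant.

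**Figure D3:**
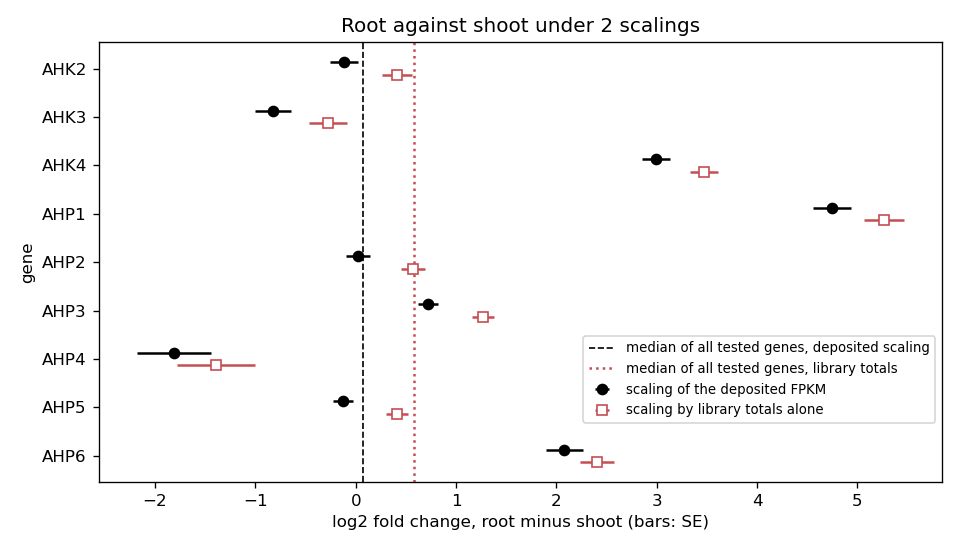
Log2 fold change of root minus shoot for the 9 genes, with bars for the SE from limma, under the deposited scaling (black circles) and under library totals alone (open red squares), beside the median of all tested genes under each (0.07, dashed, and 0.58, dotted). AHK4, AHP1, AHP3 and AHP6 lie above and AHK3 and AHP4 below the median under both scalings, while AHK2, AHP2 and AHP5 lie near it.

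Across the phosphotransfer family, the same scaling-free shares showed a change of leading gene between the organs. AHP2 held 41.7% to 49.9% of the summed FPKM in shoot and 19.8% to 24.4% in root, AHP1 held 2.59% to 4.71% in shoot and 46.6% to 55.7% in root, and neither pair of ranges overlapped. The ratio of AHP2 to AHP1 was 8.84 to 18.6 in shoot and 0.355 to 0.524 in root. The ratio of AHP2 to AHP5, by contrast, was 2.39 to 2.95 in shoot and 2.34 to 3.13 in root, with the shoot range inside the root range. The summed phosphotransfer FPKM was 72.5 ± 4.82 in shoot and 165.0 ± 15.4 in root (SD, n = 4 each), a ratio of 2.28, or 3.33 with library totals.

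The order of the 9 genes by mean FPKM in shoot was AHP2, AHK3, AHP3, AHP5, AHK2, AHP4, AHP1, AHK4 and AHP6. Neighbours in that order had ranges that did not overlap, except AHK2 with AHP4 and AHP4 with AHP1. In root the order was AHP1, AHP2, AHP3, AHK4, AHK3, AHP5, AHK2, AHP6 and AHP4. There the ranges of AHP2 and AHP3, of AHK4 and AHK3, and of AHK3 and AHP5 overlapped, and those of the other neighbours did not.

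Since AHK4 and AHP6 are known from vascular tissue, a list of 10 vascular markers was read beside them. Their summed level was 127.8 to 153.8 FPKM in shoot and 158.3 to 190.2 FPKM in root, none was without reads in either organ, and of 9 tested 5 were higher in root and 1 in shoot, where 37.6% and 32.0% of all tested genes were. Without SUC2, which made up most of the shoot sum and was left out after the values were seen, the other 9 markers summed to 40.3 to 53.4 FPKM in shoot and 125.0 to 147.7 in root. XCP1, a protease gene of maturing xylem vessels, averaged 8.12 FPKM in shoot and 68.0 in root, and so held a large part of that root sum. SUC2, the sucrose carrier of phloem companion cells, averaged 96.7 FPKM in shoot and 37.6 in root. Of the 9 markers other than SUC2, PXY (7.02 in shoot and 5.93 in root) and APL (10.9 and 8.84) averaged lower in root and the rest higher. The part of vascular tissue in the levels of AHK4 and AHP6 was not tested.

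The genes with the nearest profile, by Euclidean distance between log2(FPKM + 0.5) values over the 8 libraries, were found among all tested annotated genes, and in a 2-organ design this measure mainly matches a gene's level in each organ. For AHK4 they were PHO1;H3 (distance 0.66) and AT2G46535 (0.67), for AHP1 SULTR1;2 (0.79) and AHL23 (0.90), and for AHP6 AT3G59200 (0.52) and AT4G39720 (0.57). For AHK3 they were AT2G48160 (0.33) and AT1G53430 (0.46), for AHP3 AT5G66930 (0.27) and AT2G45330 (0.30), and for AHP4 AT4G19520 (1.17) and MIOX1 (1.24). For AHK2, AHP2 and AHP5, which changed little, the 2 nearest genes lay at 0.20 to 0.34. Among the other cytokinin pathway genes, LOG4 came nearest to AHP6 (0.64), with means of 0.259 FPKM in shoot and 3.05 in root.

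The sequences before AHK4, AHP1 and AHP6, the genes with the largest rise in root, are shown because the type-B response regulators at the end of the pathway bind a short core, AGATT, that can be looked for there. Each is the 250 bases before the annotated gene start in TAIR10.1, read 5′ to 3′ on the strand of the gene, with AGATT on either strand (AATCT when on the other strand) in capitals.
AHK4: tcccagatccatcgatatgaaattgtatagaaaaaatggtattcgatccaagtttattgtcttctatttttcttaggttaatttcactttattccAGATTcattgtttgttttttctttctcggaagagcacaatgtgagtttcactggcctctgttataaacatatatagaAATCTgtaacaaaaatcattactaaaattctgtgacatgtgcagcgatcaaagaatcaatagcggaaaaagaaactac
AHP1: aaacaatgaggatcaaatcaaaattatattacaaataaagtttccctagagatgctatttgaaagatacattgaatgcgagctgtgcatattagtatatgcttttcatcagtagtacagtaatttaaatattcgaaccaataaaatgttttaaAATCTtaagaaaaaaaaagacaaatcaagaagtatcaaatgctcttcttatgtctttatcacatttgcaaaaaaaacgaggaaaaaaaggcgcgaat
AHP6: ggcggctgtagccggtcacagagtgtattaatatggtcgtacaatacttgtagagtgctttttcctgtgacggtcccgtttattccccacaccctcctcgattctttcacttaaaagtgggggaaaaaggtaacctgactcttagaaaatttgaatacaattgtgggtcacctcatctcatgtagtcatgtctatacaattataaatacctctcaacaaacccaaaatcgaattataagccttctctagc
They lie at AHK4 chr2:369708-369957 (minus strand), AHP1 chr3:7579790-7580039 (minus strand), AHP6 chr1:30133468-30133717 (plus strand). AGATT was found 2 times before AHK4, once on each strand, 1 time before AHP1 and not before AHP6, and in all in 4 of the 9 genes (AHK4, AHP1, AHP3 and AHP5), against 63.8% of the 32545 windows of the same length before the table's nuclear genes. The auxin response element TGTCTC, searched on both strands in the same way, was in 0 of the 9 and in 11.0% of all windows, and no match of either motif overlapped a match of the other. A match is a description of these letters alone.

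Of the other cytokinin genes, 67 were listed by role and 46 passed the filter, 7 of these with no library at the threshold in 1 of the organs. Of the 46, 23 were higher in root and 14 in shoot, with a median log2 fold change of 0.49, where 37.6% and 32.0% of all tested genes were, or 29 and 10 with library totals alone, where 59.8% and 19.7% of all tested genes were. These shares of all tested genes are the background for each list below, and with so few genes per list no count is read as particular to its list. Of 8 tested type-A regulators, with a median of 0.82, 5 were higher in root, 1 of all 8 having passed the filter through its root libraries alone, and 1 was higher in shoot. Of 6 tested type-B regulators, with a median of 0.47, 4 were higher in root and 1 was higher in shoot.

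ARR5, a type-A regulator that is widely used as a marker of cytokinin response, had 2.38, 5.77, 2.76 and 2.33 FPKM in shoot and 12.0, 31.7, 26.6 and 29.6 FPKM in root, a log2 fold change of 2.74 (SE 0.33, adjusted p = 2.61e-05 by limma). Shoot library 2 and root library 1 stood apart from the rest of their organ, and the organs did not overlap. ARR3, another type-A gene, had 3 reads in all shoot libraries and 2.05, 16.3, 7.63 and 15.8 FPKM in root. The ratio of scaled reads was 149, with a 95% counting interval of 50.9 to 726 that leaves out the spread between libraries. Its log2 fold change was 3.96, and 4.55 without root library 1. ARR16, the type-A gene called higher in shoot (-0.51, adjusted p = 0.0477), lost its call under 11 of the 17 alternatives, library totals among them (-0.14, adjusted p = 0.551). Of the type-B genes, ARR11 averaged 0.601 ± 0.192 FPKM in shoot and 8.54 ± 1.38 in root (SD, n = 4 each; log2 fold change 3.04, adjusted p = 5.56e-08 by limma), and ARR14 was higher in shoot at 3.75 ± 0.903 and 0.820 ± 0.329 FPKM (-1.70, adjusted p = 6.14e-05 by limma). The type-C regulators ARR22 and ARR24 had 0 reads in every library.

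The cytokinin response factors, transcription factors of the AP2/ERF family that interact with the phosphotransfer proteins, were divided, with 2 of 6 higher in root, 3 higher in shoot and 1 not passing (median -0.48, and -0.14 with a filter of at least 1 FPKM). CRF3 was higher in root (2.80 ± 0.565 and 10.6 ± 1.04 FPKM, log2 fold change 1.75) and CRF5 lower (5.77 ± 1.70 and 1.99 ± 0.567 FPKM, -1.32). With library totals alone the median of this list was 0.04.

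Of 12 tested genes of cytokinin synthesis and activation, upstream of the receptors, 6 were higher in root and 4 in shoot. Of those higher in root, 3 passed the filter through their root libraries alone, IPT5 among them. The calls of these 3 follow in part from the filter. The median of the list was 0.58, and 1.37 with a filter of at least 1 FPKM. LOG7, of the enzymes that release the active base, averaged 2.89 ± 0.813 FPKM in shoot and 48.7 ± 11.4 in root (SD, n = 4 each), and IPT5, an isopentenyltransferase, averaged 0.251 ± 0.206 and 8.66 ± 2.66 FPKM. IPT9, which acts on transfer RNA, was higher in shoot, at 21.4 ± 2.34 and 7.28 ± 0.382 FPKM (log2 fold change -1.49, adjusted p = 2.51e-07 by limma).

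Of 4 tested cytokinin oxidases, which break the hormone down, 2 rose in root and 1 fell (median 0.64), with CKX4 at a log2 fold change of 1.86 and CKX7, the cytosolic form, at -1.51. Of 6 tested transport genes 3 were higher in each organ (median 0.49, and 1.55 with the filter of at least 1 FPKM). Of the 6, 2 passed the filter through the libraries of 1 organ alone, AZG2 through root and the other through shoot. ABCG14, which exports cytokinins for the root-to-shoot route, averaged 5.09 ± 2.42 FPKM in shoot and 36.3 ± 5.99 in root, and AZG2, a carrier gene, averaged 6.03 ± 1.29 FPKM in root with 0 reads in shoot, so that it was at least 153-fold higher in root (against a floor of 3 reads summed over the shoot libraries). ENT3, a nucleoside carrier, fell from 21.7 ± 8.0 FPKM in shoot to 3.66 ± 0.941 in root (log2 fold change -2.37).

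The other histidine kinases served as relatives of the receptors that do not bind cytokinin, and of 4 tested 1 rose in root and 1 fell (median 0.07). The 1 that rose, AHK5, passed the filter through its root libraries alone. AHK5 averaged 6.29 ± 1.62 FPKM in root and had 3 reads in all shoot libraries. The ratio of scaled reads was 246, with a 95% counting interval of 84.1 to 1200 that covers counting error only. ERS1, an ethylene receptor, was called lower in root (82.5 ± 9.60 FPKM, against 101.7 ± 3.29 in shoot, log2 fold change -0.31, adjusted p = 0.0145 by limma) but stood at 0.25 with library totals alone (adjusted p = 0.063). ETR1 (-0.02) and AHK1 (0.16) did not pass, and CKI1 had 0 reads.

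**Figure D4:**
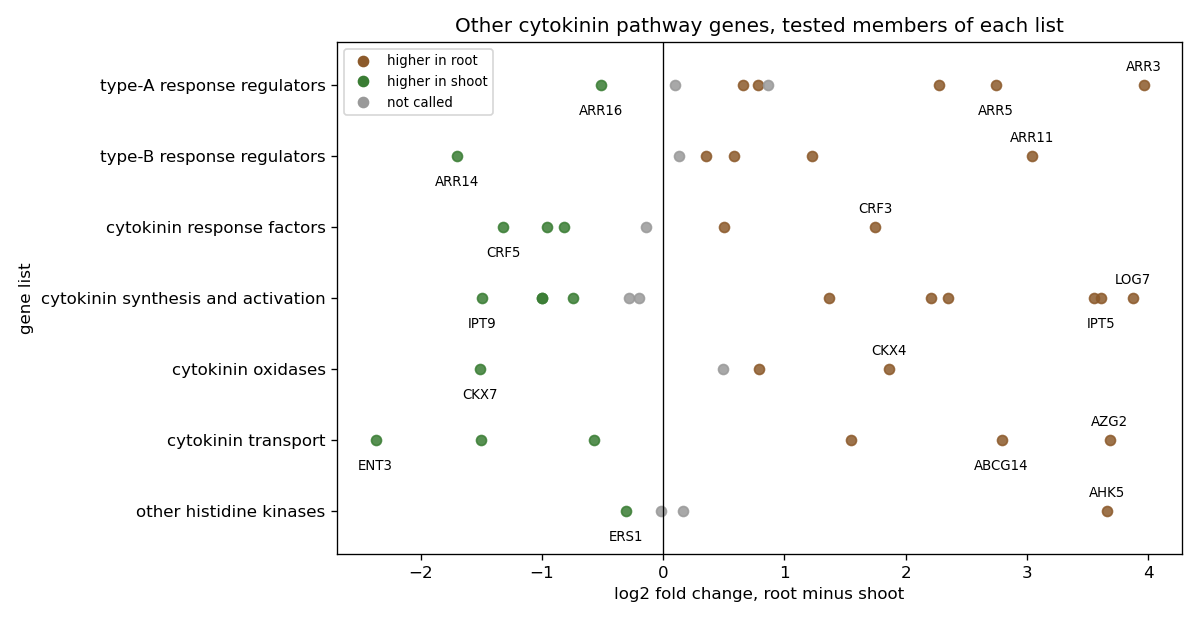
Log2 fold change of root minus shoot for each tested gene of 7 cytokinin gene lists, coloured by call (brown higher in root, green higher in shoot, grey not called), with the genes named in the text labelled. Of the 46 genes, 23 lie to the right as higher in root and 14 to the left as higher in shoot, and each list holds called genes on both sides.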

How the data were processed

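Messenger RNA of 4 shoot and 4 root samples was sequenced. The build was TAIR10 and the tools were featureCounts 1.5.0-p3 and HISAT2 2.0.5, per the submitters' processing notes; no strand setting is given in the sources used here. The growth text attached to the samples describes another species and was not used. The deposited table holds FPKM made by the authors, although it is named as counts: values multiplied by gene length came in whole steps of a size fixed within each library (to within 1.37e-09 reads), so reads per gene could be recovered.

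Log2(FPKM + 0.5) was tested with limma 3.58.1 in R 4.3.3, with a trend in the prior variance, on genes with at least 0.5 FPKM in at least 4 libraries. The code was tested on simulated data. The 9 genes, the pathway lists and the tests were chosen with earlier results of these data known. Named pathway genes are the 2 called members of each list that changed most and the called member furthest against the list's majority. Genes beyond these (ETR1, AHK1, CKI1, the type-C genes and the vascular markers XCP1, SUC2, PXY and APL) were chosen after their values were seen. LOG4 is the nearest pathway gene. Common symbols are used (IPT9 is ATIPT9 in the table). Replicate pairs differed beyond sampling noise (mean chi-square over genes 6.97 to 21.3). Sequences were read from RefSeq's TAIR10.1, in which 99.95% of 32547 shared genes had the table's coordinates. Alternatives were other pseudocounts, filters and scalings, limma-voom, the replicate block and libraries left out.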

Additional observations from a re-analysis of the deposited data

Results flagged for a closer look

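Among 70 sets of 4 libraries examined, 3 had a library far from the other libraries of its organ, and chance flags about 1 in 20 such sets. AHP2 held 24.4% of the summed phosphotransfer FPKM in root library 4 against 19.8% to 20.5% in the other root libraries. ARR5 stood at 5.77 FPKM in shoot library 2 against 2.33 to 2.76 in the other shoot libraries. CRF5 stood at 1.15 FPKM in root library 1 against 2.17 to 2.33 in the other root libraries.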

How the results depend on the processing

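Of 153 fold changes (9 genes under 17 alternatives), 148 kept their direction and their side of the threshold. Of the other 5, those with library totals alone were AHK2 (0.41, reversed and newly called), AHK3 (-0.28, no longer called), AHP2 (0.57, newly called) and AHP5 (0.41, reversed and newly called). The last of the 5 was AHP2 without root library 4 (-0.09, reversed, adjusted p = 0.398 by limma). With library totals alone 7 of the 9 genes were called higher in root and 1 in shoot, where 59.8% (12142) and 19.7% (3997) of all tested genes were. Relative to the deposited scaling, library totals raise root values and lower shoot values. With 1 library left out in turn, the calls of the 9 were 4 (root) and 2 (shoot) each time; AHP4 ranged from -2.04 to -1.44, AHK3 from -0.94 to -0.66 and AHP2 from -0.09 to 0.12. The ratio of AHP4 means without library 1 of both organs, added after the data were seen, was 4.53. With library totals, where the median of all tested genes was 0.58, the list medians were 1.36 (type-A), 1.0 (type-B), 1.0 (synthesis), 1.01 (oxidases), 1.01 (transport), 0.60 (other histidine kinases) and 0.04 (response factors, reversed). Pseudocount 0.1 and limma-voom gave 0.87 and 0.93 for synthesis and 0.86 and 0.89 for oxidases, the filter of at least 1 FPKM gave 1.37 for synthesis, 1.55 for transport and -0.14 for response factors, and the type-A median was 1.07 without shoot library 2 and 1.06 without root library 1. The median of the other histidine kinases went to between -0.04 (without shoot library 4) and 0.14 (without root library 4) with 1 library left out, and to -0.02 without root libraries 1 and 2. In reads in place of FPKM, which drops the correction for length, mean family shares in shoot were 4.89% (AHP1), 39.4% (AHP2), 27.5% (AHP3) and 21.9% (AHP5), and in root 57.9% (AHP1), 15.2% (AHP2) and 1.24% (AHP6). Deviations of same-numbered shoot and root samples correlated weakly (0.015 to 0.071), against -0.062 to 0.026 for samples with different numbers. Whether the numbers pair the samples is thus not settled. With the replicate block 14104 genes were called against 14130 without it, and again 4 and 2 of the 9 genes. Depth limits AHP6 in shoot (9 reads) and AHP4 in root (53 reads).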
